A study of Drosophila melanogaster with 3 samples.

Results

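The regions described here are stretches of the fruit fly genome where summits of Knirps binding lie close together. Of the 7129 peaks on the optimal list of the pooled data, 1967 (27.6%, Wilson 95% interval 26.6% to 28.6%) had 5 or more other summits of that list within 10 kb on either side. They are called clustered summits below, and the other 5162 are called remaining summits. Clustered summits on the same chromosome arm were joined where neighbours lay at most 10 kb apart, which gave 293 clusters. The positions of the pooled summits, and the signal threshold behind the list, chose these members. Their crowding, signal and reproducibility are therefore given as descriptions, without a test.

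The data come from chromatin immunoprecipitation with sequencing (ChIP-seq) of Drosophila melanogaster embryos. All samples belong to 1 group of 3 biological replicates of whole embryos of both sexes, 0 to 14 h old, with no other treatment in the labels. Every embryo came from the same transgenic line, kni-GFP, in which Knirps carries the green fluorescent protein (GFP) at its C-terminus, and antibodies against GFP pulled down the sonicated chromatin (200 to 800 bp). The labels do not give the length, insertion site or copy number of the transgene, and an untagged line was not analysed here. The sample mixes all embryonic stages of this window and all tissues, so fewer bound cells and less binding per cell cannot be told apart. Read depth per replicate is unknown, because the files hold peaks rather than reads.

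Knirps is a zinc-finger protein of the nuclear receptor superfamily. It is encoded by a gap gene and represses other segmentation genes in the early trunk, and it is used again in the tracheal system. Fly developmental genes are commonly controlled by several enhancers spread over introns and the DNA between genes, so binding of a regulator at many places around a gene is a familiar arrangement at such loci.

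The sequence at the strongest summit is shown for 6 named clusters with a high summed signal, because these windows carry the tallest peaks of the loci described below. Each is 201 bp of the plus strand, centred on the summit, from RefSeq Release 6 of the genome, which has the dm6 coordinates of the peak lists. Capitals mark matches on either strand to AGAGCA (core of the Knirps preference), CAGGTA (Zelda), GAGAGAG (the protein of Trl) or GTGGGAA (Suppressor of Hairless), and matches to the Knirps and Trl words can overlap.
E(spl)mbeta-HLH, chr3R:26006274-26006474: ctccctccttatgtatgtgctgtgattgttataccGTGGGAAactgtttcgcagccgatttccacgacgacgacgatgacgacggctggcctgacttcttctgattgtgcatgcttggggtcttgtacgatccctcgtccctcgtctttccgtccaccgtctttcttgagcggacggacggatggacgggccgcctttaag
Rh5, chr2L:12007386-12007586: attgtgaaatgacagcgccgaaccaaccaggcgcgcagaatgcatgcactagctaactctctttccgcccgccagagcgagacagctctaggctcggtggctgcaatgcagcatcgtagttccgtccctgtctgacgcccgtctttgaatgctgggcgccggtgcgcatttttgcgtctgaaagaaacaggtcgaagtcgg
tara, chr3R:16242584-16242784: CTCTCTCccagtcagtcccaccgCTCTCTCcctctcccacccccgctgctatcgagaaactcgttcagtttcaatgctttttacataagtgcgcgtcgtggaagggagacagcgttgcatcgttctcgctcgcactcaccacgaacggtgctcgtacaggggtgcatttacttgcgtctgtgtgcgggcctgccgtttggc
aop cluster, chr2L:2196781-2196981: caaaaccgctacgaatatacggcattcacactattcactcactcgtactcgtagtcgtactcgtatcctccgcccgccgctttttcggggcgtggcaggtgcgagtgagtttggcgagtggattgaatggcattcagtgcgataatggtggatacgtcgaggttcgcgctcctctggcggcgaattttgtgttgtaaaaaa
mir-ban cluster, chr3L:628156-628356: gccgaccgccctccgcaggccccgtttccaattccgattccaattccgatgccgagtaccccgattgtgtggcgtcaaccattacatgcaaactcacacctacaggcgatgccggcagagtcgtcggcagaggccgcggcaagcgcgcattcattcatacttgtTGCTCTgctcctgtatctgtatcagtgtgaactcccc
kni, chr3L:20691346-20691546: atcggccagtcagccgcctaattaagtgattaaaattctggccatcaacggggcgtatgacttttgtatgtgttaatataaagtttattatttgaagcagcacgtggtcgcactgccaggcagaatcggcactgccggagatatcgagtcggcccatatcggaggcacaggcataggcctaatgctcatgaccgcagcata
Among these windows, the one in the mir-ban cluster held the Knirps word, 1 time, as TGCTCT. The window upstream of E(spl)mbeta-HLH held 1 Suppressor of Hairless word, and the tara window held 2 matches to GAGAGAG, written CTCTCTC on this strand. The windows at Rh5, in the aop cluster and at kni held none of the 4 words. Over all windows of this length, AGAGCA was present at 14.2% of clustered and 14.0% of remaining summits, CAGGTA at 9.20% and 7.15%, GAGAGAG at 11.3% and 9.98%, and GTGGGAA at 2.69% and 2.85%. A match is a description of the sequence and not evidence of a bound site.

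Summits ranged from fully isolated to heavily crowded. No other summit lay within 10 kb of 933 summits, and the most crowded had 19 neighbours. Among the clustered summits the median was 6 neighbours, 298 had 10 or more and 61 had 15 or more. The threshold cut through a smooth slope: 605 summits with exactly 5 neighbours were just inside it and 806 with exactly 4 were just outside. Those 2 sets had median signal values of 310 and 299, and 27.8% and 32.6% of them lay within 500 bp of a start site.

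**Figure D1:**
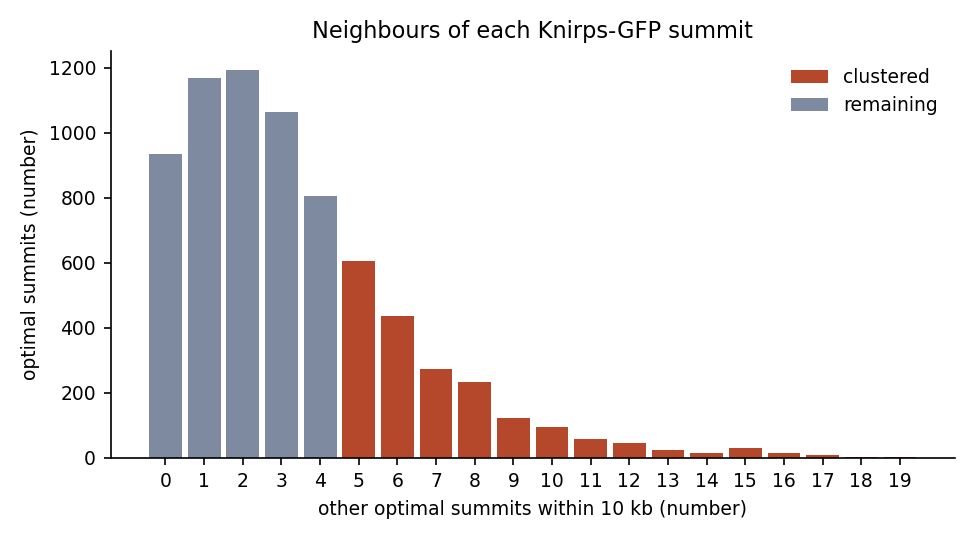
Number of optimal summits (vertical axis) by the number of other optimal summits within 10 kb (horizontal axis), with clustered summits in red and remaining summits in grey. The counts fall without a step from 1192 summits with 2 neighbours through the threshold at 5.

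When the same rule was applied to the strongest 7129 peaks of each replicate on its own, 1945, 2057 and 2055 summits were clustered (2019 ± 64.1, SD, n = 3). They formed 287, 302 and 296 clusters (295 ± 7.55, SD, n = 3). Each of these values lies close to the pooled one, but the clusters were not all at the same places: 207, 226 and 210 of the 293 pooled clusters overlapped a cluster of the respective replicate, and 158 (53.9%) overlapped one in every replicate. All 52 clusters of 10 or more summits overlapped a cluster of every replicate and held at least 5 summits of each.

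Part of the crowding came from several summits under a single peak. The median distance between adjacent clustered summits of a cluster was 1299 bp (quartiles 257 and 2428 bp), against 3954 bp between adjacent summits of the whole list, and 27.8% of the distances were at most 520 bp, the width of a standard peak. A deposited interval was shared with another summit for 232 clustered summits (11.8%) and 128 remaining ones (2.48%), and 15.4% and 3.02% of their peaks were wider than 520 bp. With 1 summit kept per merged interval before the rule was applied, 949 summits in 173 clusters met it. With optimal peaks limited to those with a summit of both other replicates within 100 bp, the rule was met by 603 summits without replicate 1, 479 without replicate 2 and 693 without replicate 3, in lists that were shorter by construction.

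A typical cluster was a few kilobases long and held a handful of summits. The median cluster held 6 clustered summits (quartiles 3 and 8, highest 41) over 8763 bp (quartiles 3354 and 13409 bp, longest 48145 bp). In 36 clusters a lone summit met the rule, because its neighbours each had fewer than 5, and 9 clusters held 20 or more. The 52 clusters of 10 or more took in 814 clustered summits (41.4%). Together the spans covered 2980 kb, or 2.23% of the 134 Mb of the 6 arms, and held all clustered summits and 15 remaining ones. Of the strongest 7129 peaks of each replicate, 1555, 1660 and 1560 summits fell in these spans (22.3% ± 0.831, SD, n = 3). Peaks of the pooled permissive list that did not reach the optimal list were also denser there, at 48.5 per 100 kb against 16.4 elsewhere, whereas start sites of protein-coding genes numbered 17.3 and 14.3 per 100 kb.

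The arms contributed unequally. Clustered summits were 32.0% of the summits on 3L, 28.6% on 2R, 27.7% on 2L, 26.0% on 3R and 21.6% on X. The small chromosome 4 had 9 of 26 summits clustered, in 2 clusters.

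The largest cluster covered the Enhancer of split complex on 3R (chr3R:25996671-26042764), with 41 clustered summits. Many of these lay closer together than the 520 bp of a standard peak, such as those at 26006374 and 26006577. Here and in the other named clusters, counts are therefore of summits and not of separate places. The complex encodes basic helix-loop-helix repressors and Bearded-family proteins that are switched on by Notch signalling, and gro, the Groucho corepressor, lies in the same cluster. Replicates 1, 2 and 3 had 37, 37 and 38 of their strongest summits in this span. All 14 protein-coding genes in it also start in it, including all 11 members of the complex, and 5 or 6 clustered summits lay within 2000 bp of E(spl)m3-HLH, E(spl)m5-HLH, E(spl)m6-BFM, E(spl)m7-HLH and E(spl)m8-HLH. Of the 41 summits, 17 were at promoters and 24 were intergenic, so none was in an intron. The tallest peak, 351 bp before the start of E(spl)mbeta-HLH and shown above, had a pooled signal value of 1647 and values of 371, 757 and 534 in replicates 1, 2 and 3. The word of Suppressor of Hairless, the DNA-binding effector of Notch, was found at 6 distinct places in 6 of the 41 windows, a count looked up after the values of the locus were seen. At the Bearded genes Brd, Tom and Ocho on 3L, whose products restrain Notch ligand activation, another cluster held 20 summits (18, 21 and 15 in replicates 1, 2 and 3). That word was present in 1 of its windows.

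The gene for Knirps itself lay in a cluster of 26 summits (chr3L:20662333-20701803), which had 21, 23 and 17 summits in replicates 1, 2 and 3. No other protein-coding gene overlaps this span, and 23 of its summits were intergenic, 2 at a promoter. The highest, 3110 bp downstream of the start site, had a pooled signal value of 988 and replicate values of 270, 457 and 182. Only 5 of the 26 summits fell within 2000 bp of the kni gene body. The word AGAGCA occurred in 0 of the 26 windows. The other members of the knirps family, knrl and eg, overlapped no cluster and had 4 and 1 optimal summits within 2000 bp.

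A further 26 summits filled a stretch of 3L with no protein-coding gene (chr3L:611860-645813). Replicates 1, 2 and 3 had 23, 24 and 27 summits there. The annotated genes inside it are noncoding and include mir-ban, the bantam microRNA, which promotes growth and blocks cell death by repressing hid. Its hairpin lay 953 bp from the nearest clustered summit, which had a signal value of 710. The highest summit of the stretch had a pooled signal value of 1518 and replicate values of 418, 631 and 484. Across the genome 15 of 260 microRNA genes (5.77%) overlapped a cluster, a share near the 5.58% of all annotated ncRNA genes (182 of 3261), among them mir-14, the mir-281 pair, mir-308 and the pair mir-279 and mir-996, all named after their values were seen.

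The highest summed signal, 30525, belonged to a cluster of 25 summits on 2R (chr2R:13555720-13584808) that overlaps CG13334, CG42807, link, CG42808, CG45088 and CG6191. It made up 3.68% of the signal summed over all clustered summits. It had 25, 27 and 25 summits in replicates 1, 2 and 3. Of its summits 18 were intergenic. The strongest peak of the whole list was here, in an intron of CG6191, with a pooled signal value of 5038 and values of 1123, 2178 and 1624 in replicates 1, 2 and 3, where it ranked 2, 1 and 1. A peak 5171 bp from the start site of CG13334 in the same cluster had 4327 in the pool and rank 3 in each replicate.

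The clusters at aop, tara, brk, sbb, Eip75B and brat overlapped 1, 3 or 6 protein-coding genes. In the cluster that holds aop, COX7AL2 and CG10874, 12 of the 25 summits were within 2000 bp of aop, which encodes the ETS-domain repressor Yan that is switched off by Egfr signalling. Replicates 1, 2 and 3 had 26, 28 and 23 summits there. The tara cluster, also of 25 summits (20, 21 and 25), had 18 of them in introns, and its highest lay 132 bp upstream of a tara start site with replicate values of 471, 647 and 524. Taranis is a protein with roles in the cell cycle and in sleep. A cluster of 21 summits (21, 22 and 18) surrounded brk, which encodes the repressor of Dpp target genes, and took in Atg5, Dok and part of CG1677, which has 21 clustered summits within 2000 bp of its long body against 4 for brk. The scribbler gene sbb, a corepressor gene, had 19 (19, 18 and 17), with 16 in introns. The nuclear receptor gene Eip75B, a target of ecdysone, had 18 (15, 20 and 17) in the larger of its 2 clusters, and 29 within 2000 bp of its body in all. The span at the translational repressor gene brat, which also holds Polr1D and DCTN6-p27, had 18 (16, 15 and 15).

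Others took in several genes with separate functions. A cluster of 19 summits (19, 15 and 18 in replicates 1, 2 and 3) spanned Notum, whose product inactivates Wingless, Diap1, an inhibitor of cell death, and Mbs, a myosin phosphatase subunit. One of 17 summits (13, 14 and 15) spanned the 5' end of pyd, which encodes a junction protein of the ZO-1 type, with ich, a regulator of the tracheal lining, and osk, the organiser of the germ plasm. For all of its intergenic summits the nearest start site was that of CG11964, and for none of its summits was it that of osk. In the span of CG14662 and plh, 18 summits were clustered (18, 15 and 15). On 2L, 20 summits (23, 20 and 13) lay between Cpr35B and noc, all of them intergenic, with CG15283 as the gene in the span. Of all clusters named here, that last one had the widest range over the replicates, with replicate 3 lowest.

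High signal was also found outside the 15 clusters with the most summits. The Rh5 and Wdr81 cluster had 13 summits (12, 13 and 11 in replicates 1, 2 and 3) but a summed signal of 13320, and its peak 667 bp upstream of Rh5, the gene of a light-sensing rhodopsin, reached 2587 in the pool. The second strongest peak of the list lay 484 bp upstream of ssp3, at 4913 in the pool and 1332, 1944 and 1596 in replicates 1, 2 and 3, in a cluster of 4 clustered summits. Replicates 1, 2 and 3 had 2, 1 and 1 of their summits in that span, which ends at the outer pooled summits. The pooled summits of signal 4913, 3616 and 255 each had a summit within 100 bp in all 3 replicates, some of them just outside the span. By the rule applied to each replicate alone, the peak of 4913 was not clustered in any of them. Among the 10 strongest clustered peaks were also those in an intron of cno (2300), an intron of sbb (2274) and the promoter of gish (2251), all 3 found in every replicate.

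**Figure D2:**
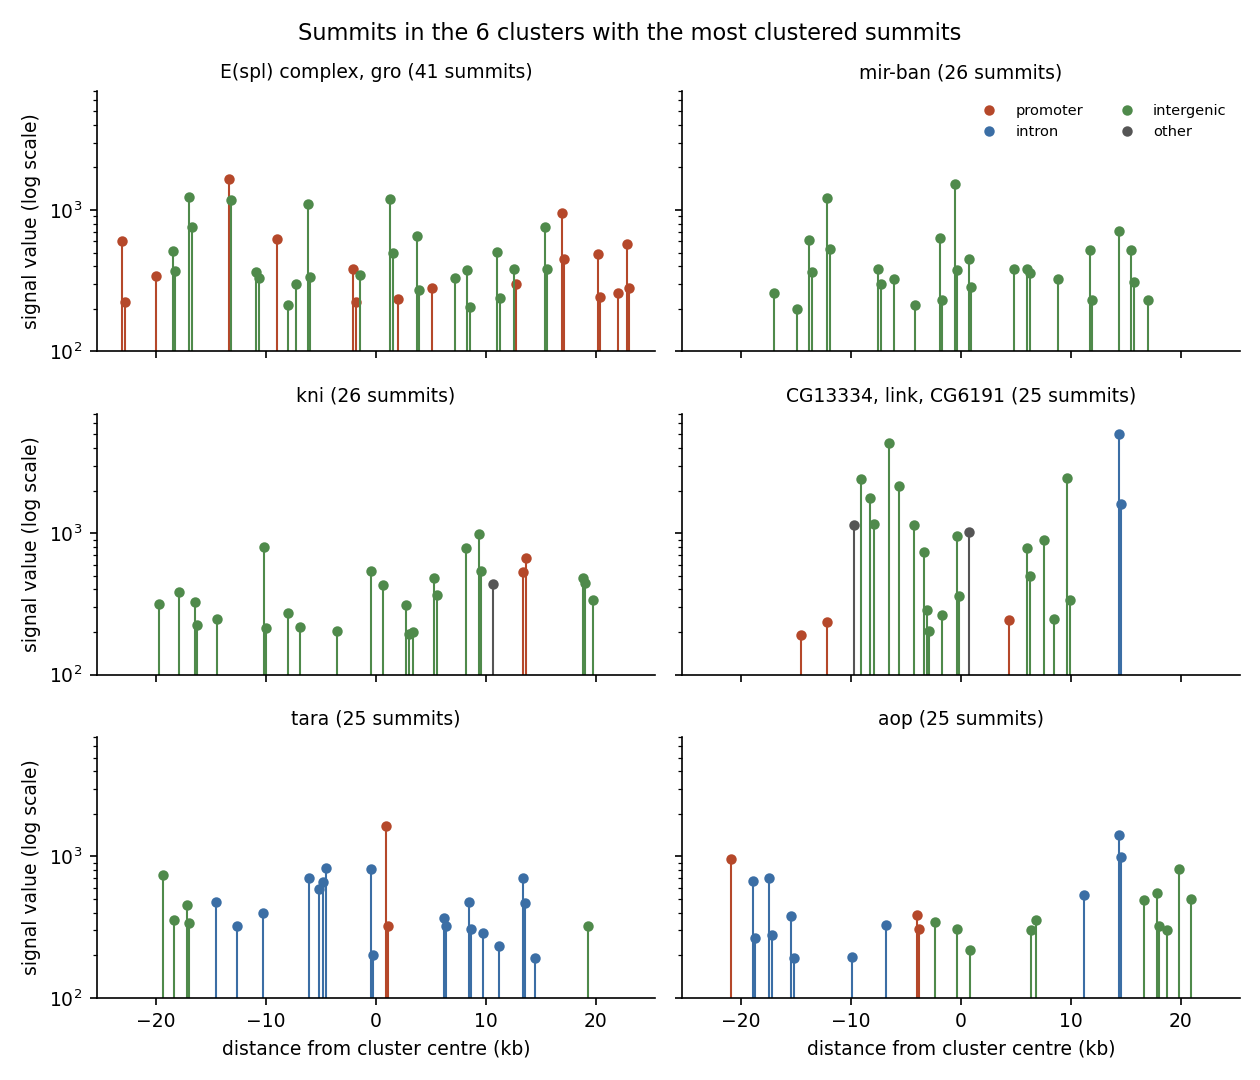
Pooled signal value of each clustered summit (vertical axis, log scale) against its distance in kb from the cluster centre (horizontal axis) in the 6 clusters with the most clustered summits, coloured by place in the annotation. Summits at kni and mir-ban are nearly all intergenic, those at tara mostly intronic, and the 2R cluster at CG13334 reaches 5038.

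Protein-coding genes in clusters were a small minority. The body of 440 of 13945 genes (3.16%) overlapped a cluster, and 352 (2.52%) had a start site in one. Genes in clusters were longer, with a median of 8684 bp against 2129 bp for the others. The share rose with length, from 1.70% of genes up to 2000 bp and 2.18% of those up to 10000 bp to 9.64% up to 50000 bp and 16.0% above. The count of genes starting in a cluster is therefore given where it is lower than that of bodies, and no list was tested. In 40 clusters no protein-coding gene overlapped, in 164 there was 1, and 119 held no start site. The gene lists below were written with earlier results of these data known, and 93 of the 293 clusters (31.7%) overlapped a gene of a symbol list.

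Genes of the Egfr pathway stood in clusters in 11 of 24 cases (45.8%), with 7 starting in one. They span its levels: the ligand gene spi (6 clustered summits within 2000 bp of the body), the kinase gene Raf (15), the nuclear repressor genes aop (12) and cic (6), and sty (6), which encodes the inhibitor Sprouty. Cbl and Dsor1 had 0. Of the FGF pathway, sty alone was in a cluster, 1 of 9 genes.

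In the Notch pathway 3 of 17 genes were in clusters outside the complex itself, 2 of them with a start site. They were mam (17 clustered summits), which encodes the coactivator Mastermind, the receptor gene N (7) and neur (5), a ubiquitin ligase gene acting on Notch ligands. H and Kul had none. The 25 genes of the list of proneural and related basic helix-loop-helix factors had 0 in clusters, which in a list of this size is near the 3.16% of all genes.

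Other signalling pathways had between 3 and 4 genes each in clusters. For Dpp, 4 of 20 were tkv (11 clustered summits), a receptor gene, shn (14), a cofactor gene, Dad (6), an inhibitory Smad gene, and brk (4). For Wingless, 3 of 24 were the receptor gene fz2 (16), Notum (7) and nkd (6), the latter 2 encoding antagonists of the pathway. For Hedgehog, 4 of 14, of which 2 start in a cluster, were the receptor gene ptc (7), boi (7) and dlp (8), which encode cell-surface proteins that help reception, and rdx (10), which encodes an adaptor for degradation of the effector Ci. JAK-STAT had 3 of 13, of which 1 starts in a cluster, namely the transcription factor gene Stat92E (3), Socs36E (4), a feedback inhibitor gene, and ken (3), a repressor gene. Hippo had 4 of 19, of which 2 start in a cluster, namely crb (8), kibra (6), ex (5) and ds (1).

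On the list of corepressors and chromatin regulators 8 of 28 genes (28.6%) were in clusters and 6 start in one, led by sbb (19), osa (9), Sin3A (7), Gug (6), the gene of Atrophin, and Su(z)2 (5). CtBP, which encodes a corepressor that Knirps is known to recruit, overlapped no cluster and had 3 optimal summits within 2000 bp of its body. Of the list of Broad-complex, Tramtrack and Bric-a-brac factors, 9 of 23 (39.1%) were in clusters and 7 start in one: psq had 10 clustered summits, lola 9, bab1 8 and Trl, the gene of the GAGA factor, 7. The leading member, jing (20 in 3 clusters), is a zinc-finger gene that was placed on this list although its product lacks the domain the list is named for. Ecdysone cascade genes were in clusters in 7 of 27 cases (25.9%), 5 of them with a start site, with EcR, the receptor gene, at 15, Hr3 at 11, ftz-f1 at 9 and Hr4 at 7 beside Eip75B.

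Among genes of the trachea, where Knirps acts later, 9 of 23 (39.1%) were in clusters and 7 start in one, including pyd (16), aop (12), ttk (6), kni (5) and grh (4). Cytoskeletal and junction genes had 8 of 26 (30.8%), 7 of them starting in one, with pyd, crb (8), chic (7), the profilin gene, cno (6) and ed (6). Axon guidance and adhesion genes had 6 of 28, but 2 start in a cluster and the list's median length is 40274 bp. The secreted cue gene sli and the netrin receptor gene unc-5 had 6 each, Fas3 and Ten-m 4 each, and robo1, a receptor gene for Slit, 3.

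Patterning lists varied. The list of 5 gap genes, which leaves out kni, had 0 in clusters, whereas kni itself lay in one. Kr, a textbook target of Knirps, had 1 optimal summit within 2000 bp and gt had 0. Of 10 pair-rule genes 1 was in a cluster, ftz-f1, which encodes the nuclear receptor partner of Ftz. Within 2000 bp of their bodies eve and ftz had 0 optimal summits, and DNA farther away was not counted for them or for Kr and gt. Hox genes and cofactors had 1 of 10, hth, with 0 start sites in a cluster. Within 2000 bp of the body, hth had 2 clustered of 20 optimal summits, and Antp had 16 optimal summits with 0 clustered. Head patterning genes had 0 of 17 and the homeobox genes outside these lists 1 of 62, zfh2 (3). Dorsoventral genes had 3 of 18, namely ush (16), a cofactor gene of GATA factors, Tl (4), the gene of the Toll receptor, and brk. Segment polarity genes had 2 of 12, ptc and nkd.

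The other lists, of tissue regulators and of general functions, were mixed. Cytosolic ribosomal protein genes, which are short, overlapped clusters in 11 of 93 cases (11.8%), all with a start site inside, but with 3 clustered summits at most, as at RpL8. Cell cycle genes had 4 of 26, of which 2 start in a cluster, namely E2f1 (7), dap (4), Cdk4 (2) and fzr (1). Neuroblast and neural genes had 4 of 36, brat (18), klu (5), grh and zfh2, and mesoderm and heart genes 1 of 31, Doc1 (1), which does not start in one. Gut genes had 1 of 20, bowl (11), glial genes 2 of 13, ttk and pnt (1), and translation factors 2 of 18, eIF4A and pAbp (3 each), with pnt and pAbp starting outside. Mitochondrial ribosomal proteins had 1 of 73 and chemosensory receptors 2 of 179. None was found among 121 cuticular protein genes, 115 histone genes, 85 genes with symbols of the cytochrome P450 type, 48 proteasome genes or 48 serpin and trypsin-like genes. The same held for 34 tetraspanin genes, 23 heat-shock genes, 16 muscle structural genes, 12 chorion and yolk genes and 9 genes of the microRNA pathway. Over all protein-coding genes the share was 3.16%, and 1.70% for those up to 2000 bp. A count of 0 in any 1 of these lists is near such shares and does not set the list apart.

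**Figure D3:**
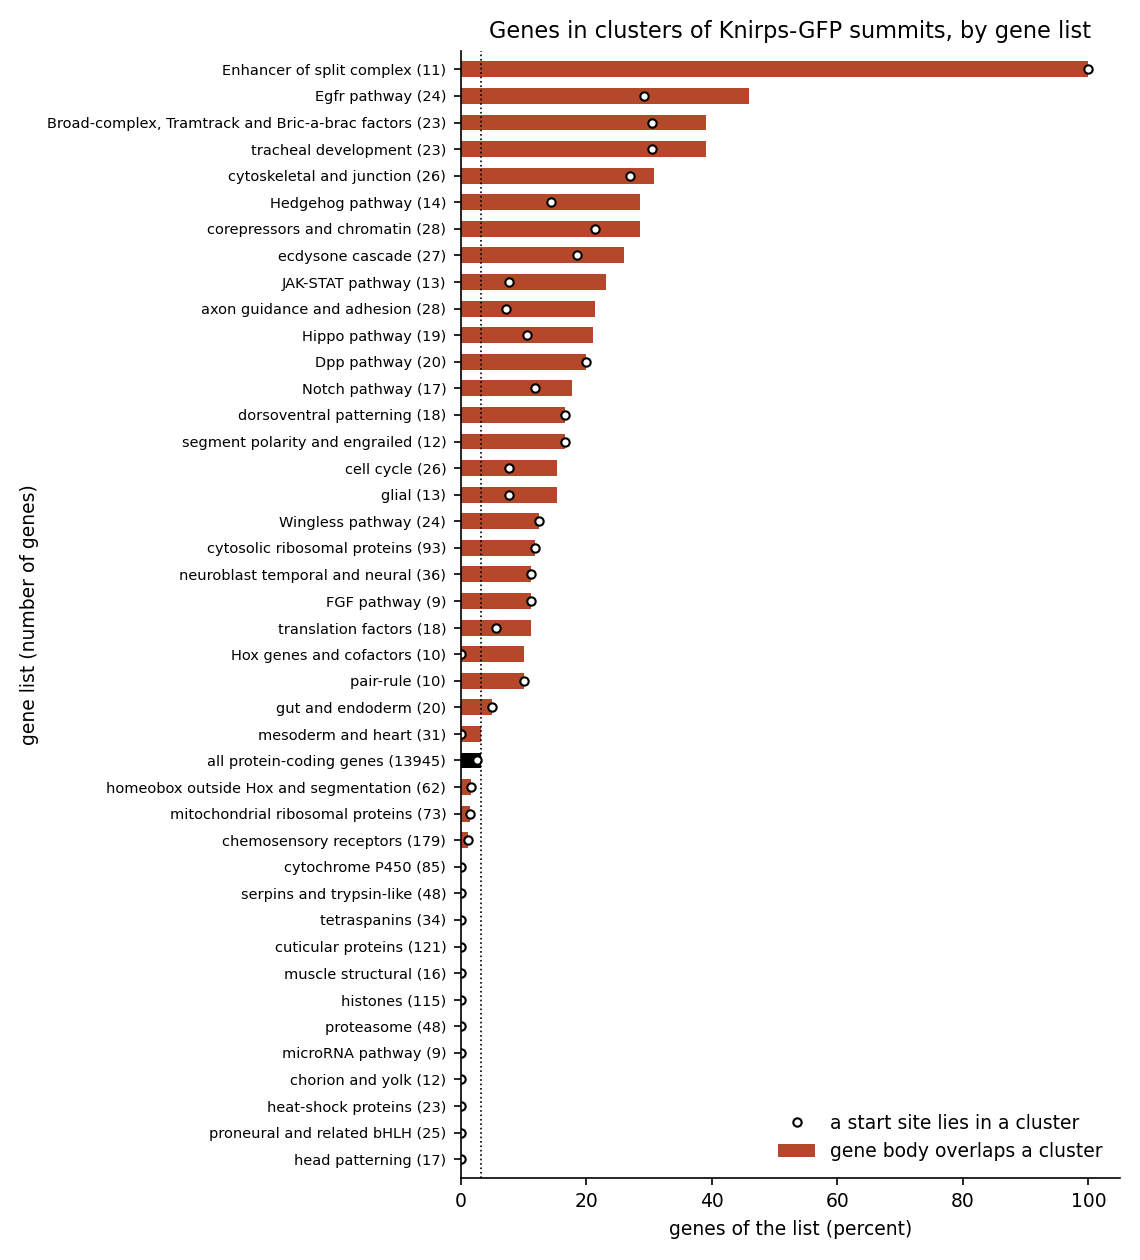
Percent of the genes of each list (vertical axis, with the number of genes) whose body overlaps a cluster (bars) or that have a start site in one (open points); the black bar and dotted line are all 13945 protein-coding genes, at 3.16%. The Enhancer of split complex is at 100% in 1 cluster, and lists of under 9 genes are left out.

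Signal was somewhat higher at clustered summits. The signal value is the authors' own measure of the strength of a peak over the control, without a stated scale. Its median was 321 at clustered and 279 at remaining summits, a ratio of 1.15, and the quartiles overlapped widely (246 to 476 and 224 to 387). Each replicate's own values and own clusters gave ratios of 1.12, 1.15 and 1.12 (1.13 ± 0.0143, SD, n = 3). The ratio was 1.11 at promoters, 1.13 in introns and 1.26 between genes, where the medians were 335 and 265. Medians went up with the number of neighbours from 266 with none to 384 with 15 to 19, and the rank correlation of neighbours with signal over the 7129 summits was weak (Spearman's rho 0.161, and 0.0830 within the 1967).

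**Figure D4:**
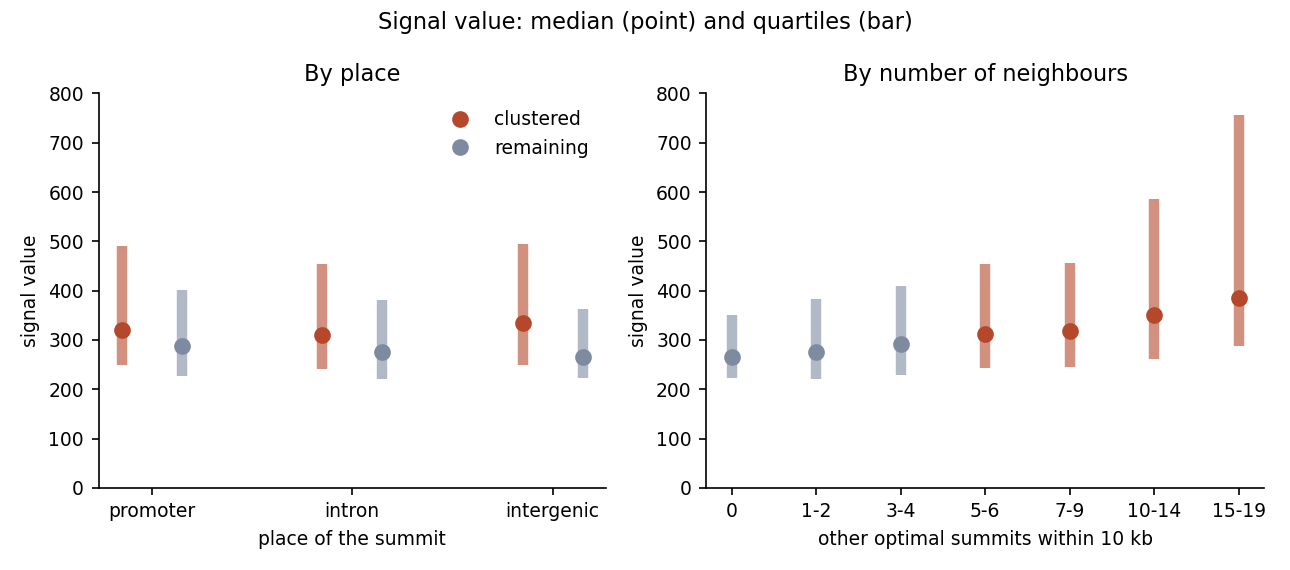
Median (points) and quartiles (bars) of the pooled signal value (vertical axes) for clustered (red) and remaining (grey) summits, by place at left and by the number of other summits within 10 kb at right. The bars overlap in every place, and the median goes from 266 with 0 neighbours to 384 with 15 to 19.

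The tallest summit of each cluster is high by selection. Those 293 summits had a median of 647, and without them the clustered median was 301, or 1.08 times that of the remaining summits. Taking the tallest summits from the clustered side alone lowers its median by construction, so this ratio does not show what carried the difference. Among the strongest 15 peaks 12 were clustered, among the strongest 100 there were 49, among the strongest 500 there were 239 (47.8%), and among the weakest 1782 there were 352 (19.8%).

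Clustered summits were found slightly more often in single replicates. A summit lay within 100 bp among the strongest peaks of replicates 1, 2 and 3 for 79.0%, 85.0% and 77.4% of clustered summits (80.4% ± 3.99, SD, n = 3). The remaining summits gave 76.9%, 79.7% and 74.2% (76.9% ± 2.71, SD, n = 3). Taken within each replicate, the difference was 2.13, 5.29 and 3.14 points (3.52 ± 1.61, SD, n = 3), higher for clustered summits in all 3. All 3 replicates had one for 1105 clustered summits (56.2%) and for 50.5% of the remaining ones. At like signal the order was the opposite among the stronger peaks. Among the strongest 1782 peaks 87.9% of clustered and 91.4% of remaining summits were found in all 3, and among the next 1782 peaks 68.2% and 79.4%. Among the weaker peaks the shares were close. They were 36.6% of 445 clustered and 38.1% of 1337 remaining summits in the set below, and 3.98% of 352 and 4.40% of 1431 in the weakest set. Single replicates were mixed in these weaker sets. For clustered against remaining summits, replicate 1 was lower in each (73.5% against 75.8%, 46.0% against 50.7%). Replicate 2 was higher in each (82.0% against 79.4%, 54.5% against 51.9%). The tallest summits of the clusters were found in all 3 in 82.6% of cases.

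Where the summits lie relative to genes was not used to choose them, and the shares were compared by a test. The test is not independent of the rule, however. The spans hold 1982 optimal summits and 514 start sites, whereas all 6 arms hold 7129 summits and 19252 start sites. Where summits outnumber start sites, a lower share near a start site can follow from crowding alone, and the tests below cannot separate this. Of 6 location classes 3 (50%) differed (Fisher's exact test, two-sided, Benjamini-Hochberg adjusted over the classes). Promoters, within 500 bp of a start site, held 446 of 1967 clustered summits (22.7%) and 2193 of 5162 remaining ones (42.5%), a difference of -19.8 percentage points (Fisher's exact test, adjusted p = 7.56e-56). In replicates 1, 2 and 3 the promoter shares were 21.4%, 21.5% and 27.1% of clustered summits and 41.6%, 41.4% and 44.9% of remaining ones. The sets did not overlap, and the difference was -19.3 ± 1.30 points (SD, n = 3). Clustered summits lay a median of 2535 bp from the nearest start site and remaining ones 928 bp.

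Introns held 47.6% of clustered and 38.0% of remaining summits (Fisher's exact test, adjusted p = 5.02e-13), with a difference of 9.37 ± 1.32 points over the replicates (SD, n = 3). Intergenic DNA held 27.7% and 17.0% (Fisher's exact test, adjusted p = 3.60e-22), with a difference of 9.91 ± 2.51 points (SD, n = 3). Coding exons (0.203% and 0.542%, adjusted p = 0.108) and the 5' and 3' UTRs (adjusted p = 0.671 each) did not pass Fisher's exact test. Summits of the same cluster share their surroundings, and the tests, which count each as independent, overstate the evidence to a degree that was not measured. With the strongest summit alone standing for each cluster in the same exact test, the promoter difference was -15.2 points (adjusted p = 1.14e-06), the intron difference 10.5 (adjusted p = 0.00127) and the intergenic one 5.50 (adjusted p = 0.0421). The intron difference did not pass the exact test when the rule was applied to the strongest 3564 peaks (4.24 points, adjusted p = 0.147) or without replicate 3 (4.43 points, adjusted p = 0.0595).

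**Figure D5:**
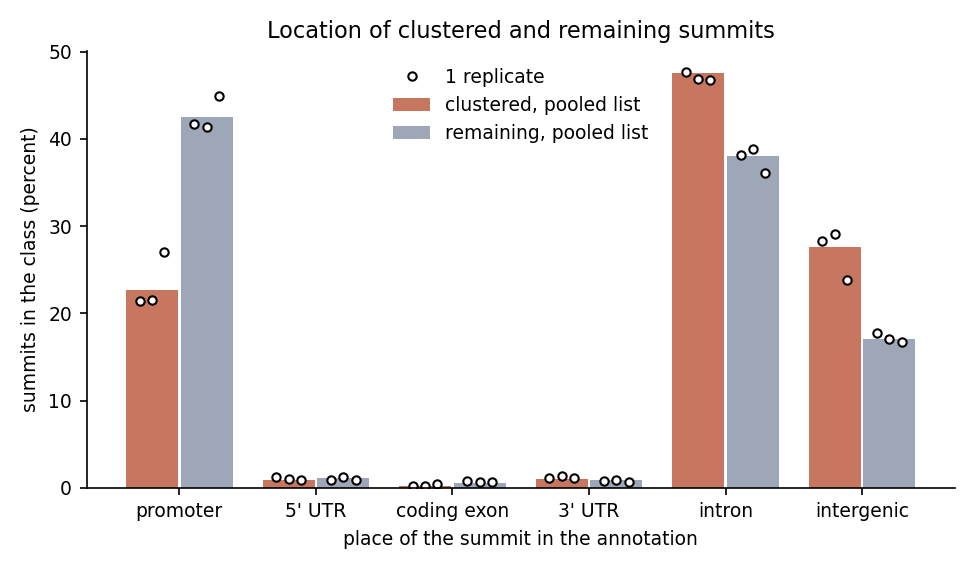
Percent of clustered (red) and remaining (grey) summits in each class of the annotation (vertical axis), with bars for the pooled list and open points for the 3 replicates with the rule applied to each. Clustered summits were at promoters in 22.7% and remaining ones in 42.5% of cases, and no replicate point of one kind reaches the other in the promoter, intron or intergenic class.

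Sequence near the summit was not used to choose the members either. Of 25 words counted within 100 bp of the summit, 0 (0%) were more frequent and 0 (0%) less frequent at clustered summits after adjustment (Fisher's exact test, two-sided, Benjamini-Hochberg), and 7 had an unadjusted p under 0.05. The Knirps word AGAGCA was present at 280 of 1967 clustered (14.2%) and 724 of 5162 remaining windows (14.0%, Fisher's exact test, adjusted p = 0.931). In replicates 1, 2 and 3 it was present at 14.0%, 14.3% and 14.5% of clustered windows. Among named clusters it was most common at aop and tara, in 7 of 25 windows each, counts looked up after the values were seen.

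Other words are named here after their values were seen. CAGGTA, bound by the early activator Zelda, was present at 9.20% and 7.15% of windows (Fisher's exact test, adjusted p = 0.0907), and CGATA, bound by the insulator protein BEAF-32, at 22.2% and 25.2% (adjusted p = 0.0907). In replicates 1, 2 and 3 CGATA stood at 21.4%, 20.9% and 21.2% of clustered and 25.9%, 25.5% and 25.6% of remaining windows, which did not overlap. The number of words called depended on the settings and went up to 8 with neighbours counted within 20 kb. CGATA passed at 7 of 16 alternative settings, each time lower at clustered summits, and the Knirps word at 0 of 16. CAGGTA passed at 3 of 16, each time higher at clustered summits. Among these was the setting with 1 summit per cluster (4.80 points, Fisher's exact test, adjusted p = 0.0493). Split by place, CGATA was present at 30.3% of clustered and 30.1% of remaining promoter windows (0.13 points, Fisher's exact test, adjusted p = 1) and at 19.8% and 21.6% of the others (-1.80 points, adjusted p = 0.454). The overall gap of -3.06 points was thus larger than the gap within either place. For CAGGTA the gaps were 2.00 points at promoters (Fisher's exact test, adjusted p = 0.511) and 1.69 elsewhere (adjusted p = 0.299). The windows had a median of 46.3% G and C at clustered and 45.3% at remaining summits, and the part of base composition was not tested.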

How the data were processed

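ChIP-seq peaks of Knirps-GFP were deposited for 3 replicates, labelled biological, and for their pool. Per the notes deposited with the samples, permissive lists were called against a control, and the optimal list holds what passed a cutoff on irreproducible discovery set by the authors. For the aligner, the caller and that cutoff, names and settings are not given in the sources used here. Signal values were deposited for each peak and are the authors' measure over the control, used within a list only. The optimal list is exactly the 7129 pooled peaks of highest signal, so it is a threshold on signal. The summit is the peak start plus the deposited offset. Coordinates are dm6 and 1-based, sequence came from RefSeq Release 6 and genes from Ensembl release 115, on 6 arms with 13945 protein-coding genes.

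Python 3.11.15 with numpy 2.4.6, pandas 2.3.3 and scipy 1.17.1 was used. A cluster spans its first to last clustered summit. A summit was found in a replicate when one of its strongest 7129 peaks had a summit within 100 bp. A summit in several classes was counted as promoter first, then as UTR or coding exon, then as intron. Fisher's exact tests treat summits as units, and their threshold was an adjusted p of 0.05. SDs are over 3 replicates, and depth is unknown. Code was tested on simulated data. The 43 gene lists matched all but 15 of 595 written symbols, or were made from symbol patterns. Members, lists and words were chosen with earlier results of these data known. Named were the 15 clusters with the most summits, the 10 with the highest summed signal, and the 10 strongest clustered peaks. For each list up to 5 genes in clusters by summits and up to 2 outside in alphabetical order were eligible, with words past the threshold and the Knirps word. Alternatives changed the rule, the joining, the windows, the matching and the replicates used.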

Additional observations from a re-analysis of the deposited data

How the results depend on the processing

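The promoter difference kept its direction and side of the threshold in all 14 alternatives tried, at -24.2 to -15.2 points. The number of location classes called was 2 or 3. It was 2 where the intron class did not pass, with the strongest 3564 peaks and without replicate 3. Counts followed the definition. With 6 or more neighbours there were 182 clusters. Neighbours within 5 kb gave 732 summits in 135 clusters and within 20 kb 3661 in 598. One summit per merged interval gave 949 in 173, and the strongest 3564 peaks 464 in 72. Without a replicate, meaning optimal peaks with a summit of both other replicates, there were 479 to 693 summits in 89 to 121 clusters. Positions and signal at that setting still came from the pool of all 3. The signal ratio stayed above 1, at 1.13 for 4 neighbours, 1.26 for 5 kb, 1.11 for 20 kb, 1.13 for 1 summit per interval, and 1.12 to 1.19 without a replicate. Genes in clusters were 5.29% for 4 and 1.91% for 6 neighbours, 0.947% for 5 kb, 8.02% for 20 kb, 1.66% for 1 summit per interval and 0.717% for the strongest 3564 peaks. They were 2.52% by start sites, 5.67% with spans widened by 5 kb and 0.817% to 1.06% without a replicate. Words called numbered 4 for 4 and for 6 neighbours, 8 for 20 kb, 2 for 1 summit per interval and per cluster, 1 for the strongest 3564 peaks, 3 for windows of 200 bp, 1 within promoters and 0 to 2 without a replicate. The share found in all 3 replicates was 32.6% within 50 bp, 71.6% within 200 bp, 79.5% by any overlap and 82.2% against whole lists. The causes were not tested, except that the shorter lists hold fewer peaks by construction. Unknown read depth limits what absent summits can show.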
